A study of Mus musculus with 6 samples.

Results

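The voltage-gated calcium channel alpha1 subunits are the pore-forming proteins encoded by the Cacna1 genes, and all 10 mouse genes of the family were taken: Cacna1s, Cacna1c, Cacna1d and Cacna1f of the Cav1 or L-type group, Cacna1a, Cacna1b and Cacna1e of the Cav2 group, and Cacna1g, Cacna1h and Cacna1i of the Cav3 or T-type group. They were chosen by symbol, matched to Ensembl identifiers through GENCODE vM21, and are 10 of 50686 identifiers that were counted. RNASeq was available from 2 cultures of NSC, neural stem cells of wild-type mouse embryos at E16.5, and from 2 cultures labelled NSC Bmi1Over, of the genotype STOPFloxBmi1;NestinCre at the same age. In the latter, Cre expressed from the Nestin promoter removes a stop cassette ahead of a Bmi1 transgene, so recombination is limited to cells that have used that promoter. H3K27me3, the histone mark that Polycomb repressive complex 2 deposits, was mapped by ChIPSeq in 1 library of each condition. Cells came from the cerebral hemispheres and were grown with EGF and FGF, and the mGIC of the study were not analysed here.

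An alpha1 subunit forms the calcium-selective pore and the voltage sensor, and alpha2delta and beta subunits help to bring Cav1 and Cav2 pores to the membrane and tune their gating. L-type channels couple depolarisation to transcription and to muscle contraction, Cav2 channels trigger transmitter release at synapses, and T-type channels open near the resting potential and are common in precursor cells. In neural stem and progenitor cells, calcium entry is linked to proliferation and to differentiation.

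Counted reads ranged from 18112100 to 61353076 per library, and the 4 libraries had 65.9% to 72.2% of their reads counted on genes. The share of unmapped reads was 11.2% and 13.7% in NSC and 16.2% and 17.6% in NSC Bmi1Over. Bmi1, the Polycomb gene that the transgene carries, stood at 133.3 and 123.5 CPM (counts per library size, scaled by TMM, the trimmed mean of M-values) in NSC and at 118.6 and 112.6 CPM in the libraries labelled NSC Bmi1Over. Its log2 fold change was −0.15 (SE 0.12, edgeR adjusted p = 0.463), so reads on the mouse gene were not raised. Whether transgene reads are counted there is not known, so these counts neither check the label nor show the transgene's expression, and every direction given here rests on the label. The 8 markers of neural stem cells summed to 5968.1 and 6637.1 CPM in NSC and to 6506.8 and 6650.8 CPM in NSC Bmi1Over, and none passed the test. The 8 markers of the oligodendrocyte lineage, led by Olig1 and Olig2, summed to 2481.1 and 2609.5 CPM in NSC and to 2565.1 and 2486.1 CPM in NSC Bmi1Over, and none passed. This sum hides members that differ between the cultures labelled NSC Bmi1Over, with Sox10 at 0.286 and 4.64 CPM, Pdgfra at 16.5 and 44.5 CPM and Cspg4 at 250.3 and 424.5 CPM. In NSC, Sox10 stood at 2.50 and 1.58 CPM, Pdgfra at 27.9 and 34.4 CPM and Cspg4 at 197.1 and 269.8 CPM. Beside 2.15% of all tested genes called, 1 of the 7 tested neuron markers and 1 of the 6 tested astrocyte markers were. Of the 8 neuron markers, Syt1 was higher in the libraries labelled NSC Bmi1Over and none was lower, with a sum of 962.7 to 982.5 CPM in NSC and 949.3 to 1029.1 CPM in NSC Bmi1Over, most of it from Map2, while Stmn2 was at or below 0.105 CPM. The median log2 fold change of the 7 tested neuron markers was −0.07, with 3 of 7 above 0. Of the 6 astrocyte markers, Aldh1l1 was lower and none was higher, with a sum of 259.9 to 332.4 CPM in NSC and 208.8 to 222.6 CPM in NSC Bmi1Over, while Gfap was at or below 0.770 CPM. The Syt1 call was lost with DESeq2's size factors (edgeR adjusted p = 0.0517) and without NSC Bmi1Over replicate 2 (edgeR adjusted p = 0.0713). The Aldh1l1 call was lost without NSC replicate 1 (edgeR adjusted p = 0.124) and without NSC Bmi1Over replicate 2 (edgeR adjusted p = 0.0897). Markers of microglia, of endothelial and mural cells and of muscle summed to at most 3.41 CPM in any library. The part of these differences, and of the unmapped share, in the results below was not tested.

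Start regions that lie in or between peaks of NSC, and those of 2 members of higher level without a promoter peak, are shown first, since H3K27me3 at promoters is known to favour windows rich in CpG. RefSeq promoter windows of build GRCm38.p6, from 250 bases before to 50 after a start, were at hand for 7 of the 10 genes, in 10 windows, and not for Cacna1a, Cacna1g and Cacna1h. The letters CG, which read the same on both strands, are in capitals. Of 32851 windows of this length, 94.6% held at least 1 CG, with a median of 7 and quartiles of 3 and 20. The Cacna1i window at chr15:80286988-80287287, on the plus strand, had 23 CG and lay with all 300 bases in an H3K27me3 peak of NSC. The window at the internal Cacna1e start, chr1:154725871-154726170 on the minus strand, had 11 CG and also lay with all 300 bases in a peak of NSC. The window of an internal Cacna1d start, chr14:30353437-30353736 on the minus strand, had 63 CG, and NSC peaks lay on either side of it but on 0 of its bases. In contrast, the window at chr2:24763103-24763402 on the minus strand for Cacna1b had 35 CG, the window at chr6:119108446-119108745 on the minus strand for Cacna1c had 57 CG, and both had 0 bases in a peak of either list.
Cacna1i: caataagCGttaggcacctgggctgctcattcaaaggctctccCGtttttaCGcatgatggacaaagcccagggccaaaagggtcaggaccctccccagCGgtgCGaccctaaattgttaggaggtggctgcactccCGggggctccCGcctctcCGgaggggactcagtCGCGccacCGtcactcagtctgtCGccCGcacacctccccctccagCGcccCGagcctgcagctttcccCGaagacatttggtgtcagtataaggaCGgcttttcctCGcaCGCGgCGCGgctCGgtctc
Cacna1e: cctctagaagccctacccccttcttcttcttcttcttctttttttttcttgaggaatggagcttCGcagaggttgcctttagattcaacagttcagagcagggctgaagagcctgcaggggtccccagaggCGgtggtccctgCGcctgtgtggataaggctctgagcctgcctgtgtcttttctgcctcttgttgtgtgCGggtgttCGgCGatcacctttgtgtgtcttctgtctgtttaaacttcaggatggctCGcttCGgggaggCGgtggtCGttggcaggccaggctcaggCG
Cacna1d: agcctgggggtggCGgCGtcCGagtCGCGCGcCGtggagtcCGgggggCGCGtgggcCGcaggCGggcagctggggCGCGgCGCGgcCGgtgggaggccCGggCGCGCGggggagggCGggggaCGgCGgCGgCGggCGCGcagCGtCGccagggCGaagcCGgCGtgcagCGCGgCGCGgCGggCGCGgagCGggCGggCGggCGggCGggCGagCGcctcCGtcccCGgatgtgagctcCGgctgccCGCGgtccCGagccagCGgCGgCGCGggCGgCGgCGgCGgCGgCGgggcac
Cacna1b: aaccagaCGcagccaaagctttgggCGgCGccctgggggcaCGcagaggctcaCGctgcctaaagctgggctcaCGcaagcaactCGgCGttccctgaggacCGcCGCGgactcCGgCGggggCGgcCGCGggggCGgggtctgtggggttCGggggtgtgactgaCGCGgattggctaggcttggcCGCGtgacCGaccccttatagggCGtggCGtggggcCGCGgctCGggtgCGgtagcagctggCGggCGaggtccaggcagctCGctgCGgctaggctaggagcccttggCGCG
Cacna1c: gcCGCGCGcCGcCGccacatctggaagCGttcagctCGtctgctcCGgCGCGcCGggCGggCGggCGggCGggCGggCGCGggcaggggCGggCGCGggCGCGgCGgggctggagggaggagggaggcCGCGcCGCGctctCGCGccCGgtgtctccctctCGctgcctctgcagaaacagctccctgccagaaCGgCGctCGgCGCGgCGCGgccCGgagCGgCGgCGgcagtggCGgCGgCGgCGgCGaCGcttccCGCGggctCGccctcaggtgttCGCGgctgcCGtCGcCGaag

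The 5 windows are a description, and the other 5 windows of the family had 3 to 9 CG and no base in a peak.

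Cacna1h, Cacna1c, Cacna1b and Cacna1a were the most abundant alpha1 transcripts of the neural stem cells, and Cacna1h stood clear of the rest. Compared per kb of exon, so that genes of different length can be set side by side, the mean level in NSC was 11.3 ± 1.03 CPM per kb (SD, n = 2) for Cacna1h, which was above 72.4% of the tested genes. Cacna1c followed at 4.13 ± 0.599, Cacna1b at 3.90 ± 0.880 and Cacna1a at 3.0 ± 0.66 CPM per kb. Cacna1d stood at 1.30 ± 0.331, Cacna1g at 0.590 ± 0.0232 and Cacna1e at 0.157 ± 0.0219 CPM per kb. Cacna1i at 0.0389 ± 0.0267, Cacna1s at 0.0266 ± 0.00344 and Cacna1f at 0.0131 ± 0.00617 CPM per kb closed the order. Neighbours in this order did not overlap between libraries of NSC, except Cacna1c with Cacna1b, Cacna1b with Cacna1a, and Cacna1i with Cacna1s. Cacna1s and Cacna1f were near the floor of 3 reads per library, with 6 and 4 against 5 and 2 reads in NSC. Their reads overlapped in both groups, so their places relative to each other are not resolved. The order and the overlapping neighbours were the same in the libraries labelled NSC Bmi1Over, where Cacna1h stood at 16.3 ± 3.04 CPM per kb (SD, n = 2). With the length of the longest coding transcript in place of all exons, Cacna1a and Cacna1b changed places.

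**Figure D1:**
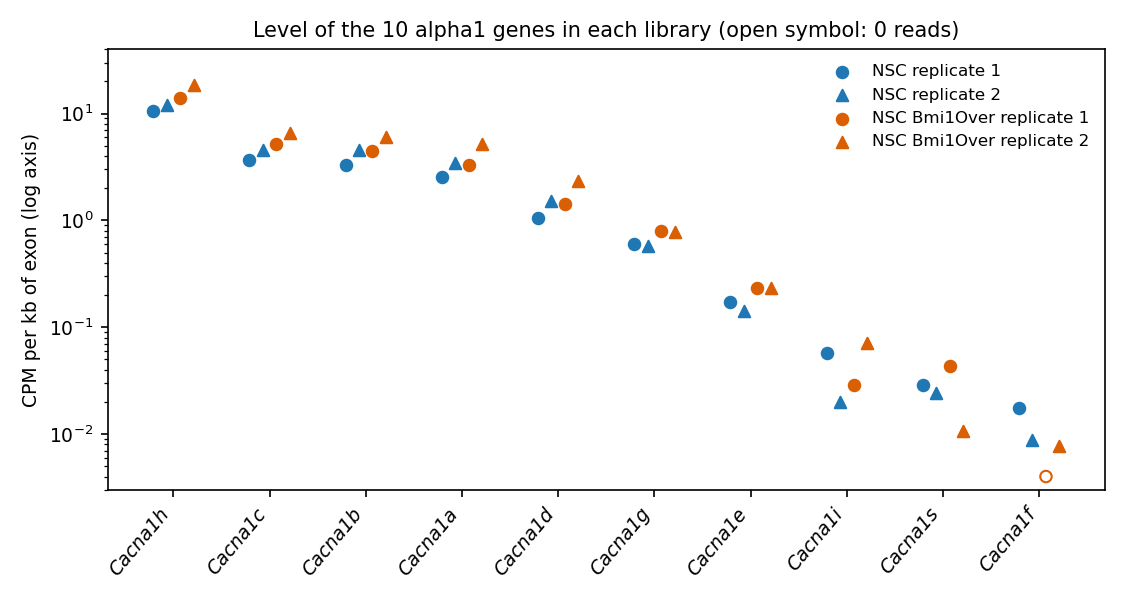
Level of each of the 10 alpha1 genes in the 4 libraries, in CPM per kb of exon on a log axis, in order of the mean in NSC. Blue marks NSC and orange the libraries labelled NSC Bmi1Over, with a symbol for each replicate. Cacna1h lies highest in every library, and Cacna1f has an open symbol for the library with 0 reads.

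Counted without regard to length, the 10 genes together took 268.6 and 328.1 CPM in NSC and 361.4 and 481.0 CPM in the libraries labelled NSC Bmi1Over, so that the groups did not overlap. Cacna1h made up 38.6% and 35.9% of this sum in NSC and 38.2% and 37.4% in NSC Bmi1Over, and Cacna1c between 28.7% and 30.1% in the 4 libraries. The make-up of the family by these shares was thus close in all libraries. The Cav1 genes summed to 92.4 and 116.1 CPM in NSC and 127.0 and 167.7 CPM in NSC Bmi1Over. The Cav2 genes summed to 65.8 and 88.1 CPM in NSC and 88.1 and 124.9 CPM in NSC Bmi1Over. The Cav3 genes summed to 110.3 and 123.9 CPM in NSC and 146.2 and 188.4 CPM in NSC Bmi1Over.

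None of the alpha1 genes passed the test between the libraries labelled NSC Bmi1Over and NSC, although every tested member had a positive log2 fold change. Of the 10 genes, 8 had enough reads to be tested and 0 were called by edgeR's quasi-likelihood test at an adjusted p under 0.05, beside 2.15% of all 15521 genes tested, that is 334 genes of which 315 were higher. Without adjustment, 4 of the 8 had p under 0.05, as had 3760 of all 15521 genes, and DESeq2 called 1, Cacna1h, among 1488 genes in all. The 8 log2 fold changes lay between 0.41 and 0.58 with a median of 0.51, where the median of all tested genes was −0.01 and 48.6% of them were above 0. A log2 fold change above 0 was also found for all 7 tested sodium channel alpha genes, all 3 tested alpha2delta genes and 18 of 20 genes of stores and extrusion. The libraries of the groups did not overlap for 4 of the 8, Cacna1c, Cacna1e, Cacna1g and Cacna1h, beside 59.0% of all tested genes. The call depended on single libraries: without NSC replicate 2, 3 genes were called (Cacna1a, Cacna1b and Cacna1d), and without NSC Bmi1Over replicate 1, 5 were called (these 3 with Cacna1c and Cacna1h). The calls over all genes moved too, to 1461 of 16356 and 2546 of 16345 genes, in fits that take the spread of the lone culture from the other group. Without NSC Bmi1Over replicate 2 no member was called, and the median of the 8 was 0.26. In bulk RNA, more cells of a type and more RNA per cell cannot be told apart.

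Among the L-type genes, Cacna1c (ENSMUSG00000051331, chr6:118587240-119196418 of mm10, minus strand), whose channel is the main L-type pore of brain and heart, stood at 78.6 and 96.6 CPM in NSC and at 108.8 and 138.2 CPM in NSC Bmi1Over. Both NSC libraries were below both others, with a log2 fold change of 0.50 (SE 0.16, edgeR adjusted p = 0.115). Cacna1d (ENSMUSG00000015968, chr14:30039939-30491455, minus strand), the L-type pore that opens at more negative voltages, stood at 13.4 and 19.3 CPM in NSC and at 17.9 and 29.3 CPM in NSC Bmi1Over. Here the groups overlapped, with a log2 fold change of 0.55 (SE 0.25, edgeR adjusted p = 0.220), and 589 bp of its exons overlap Chdh on the opposite strand, which unstranded counts cannot tell apart. Cacna1s (chr1:136052750-136119822, plus strand), the pore of skeletal muscle, had 6 and 4 reads in NSC and 5 and 4 reads in NSC Bmi1Over, and 1309 bp of its exons overlap the antisense gene Gm37759. Cacna1f (chrX:7607083-7635196, plus strand), the pore of photoreceptors, had 5 and 2 reads in NSC and 0 and 4 reads in NSC Bmi1Over. These few reads, beside a floor of 3 reads per library, were too low for the test, and no change was detectable at this depth.

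Of the Cav2 genes, Cacna1a (ENSMUSG00000034656, chr8:84388440-84640246, plus strand), the pore of P/Q-type channels, stood at 28.9 and 39.6 CPM in NSC and at 37.9 and 59.0 CPM in NSC Bmi1Over. The groups overlapped, with a log2 fold change of 0.51 (SE 0.22, edgeR adjusted p = 0.203), and 435 bp of its exons overlap the antisense gene Gm16183. The cultures of the same group differed by 0.45 in NSC and by 0.63 in NSC Bmi1Over on the scale of log2(CPM + 0.5), about as much as the groups did. Cacna1b (ENSMUSG00000004113, chr2:24603887-24763152, minus strand), the pore of N-type channels, stood at 32.6 and 45.0 CPM in NSC and at 44.3 and 60.0 CPM in NSC Bmi1Over, and overlapped too (log2 fold change 0.44, SE 0.19, edgeR adjusted p = 0.211). Cacna1e (ENSMUSG00000004110, chr1:154390731-154884501, minus strand), the pore of R-type channels, was much lower, at 4.34 and 3.56 CPM in NSC and at 5.94 and 5.93 CPM in NSC Bmi1Over. Its groups did not overlap, and its log2 fold change of 0.58 was the highest of the tested members (SE 0.22, edgeR adjusted p = 0.158).

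Of the T-type genes, Cacna1h (ENSMUSG00000024112, chr17:25374285-25433783, minus strand) stood at 103.6 and 117.8 CPM in NSC and at 137.9 and 179.9 CPM in NSC Bmi1Over. The groups did not overlap, the log2 fold change was 0.52 (SE 0.16, 95% interval 0.16 to 0.89), and the edgeR adjusted p of 0.0999 was the lowest of the family. Of its exons, 158 bp overlap Tpsg1 on the opposite strand. DESeq2 gave an adjusted p of 0.0325 for the same gene, and over all alternatives its adjusted p ranged from 0.00206 to 0.711. Cacna1g (ENSMUSG00000020866, chr11:94408391-94474198, minus strand) stood at 6.15 and 5.81 CPM in NSC and at 8.05 and 7.87 CPM in NSC Bmi1Over. Cultures of the same group were close, and the groups did not overlap (log2 fold change 0.41, SE 0.19, edgeR adjusted p = 0.227). Cacna1i (ENSMUSG00000022416, chr15:80287238-80398279, plus strand) was counted with 18 and 5 reads in NSC and with 5 and 40 reads in NSC Bmi1Over, which is 0.570 and 0.198 CPM against 0.286 and 0.700 CPM. The groups overlapped, and its log2 fold change of 0.49 (SE 0.57, edgeR adjusted p = 0.612) turned to −0.06 without NSC replicate 2 and to −0.47 without NSC Bmi1Over replicate 2.

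Cacna2d3, an alpha2delta subunit of neuronal channels, rose 2.31-fold in the libraries labelled NSC Bmi1Over, from 21.6 and 23.5 CPM in NSC to 51.1 and 52.7 CPM. The log2 fold change was 1.21 (SE 0.12, edgeR adjusted p = 0.00710), and it passed under all 13 alternatives, with a log2 fold change between 1.06 and 1.26. The other alpha2delta genes did not pass: Cacna2d1, the most abundant, stood at 91.2 and 94.2 CPM in NSC and at 109.5 and 128.9 CPM in NSC Bmi1Over, and Cacna2d2 at 11.9 and 10.8 against 11.4 and 18.9 CPM. Of the 4 alpha2delta genes, 3 were tested and 1 was higher, beside 2.15% of all tested genes called.

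None of the 4 beta subunit genes passed, and their median log2 fold change was 0.42. Cacnb3, a beta subunit common in brain, stood at 21.8 and 30.3 CPM in NSC and at 29.7 and 44.4 CPM in NSC Bmi1Over (log2 fold change 0.52, edgeR adjusted p = 0.191). Cacnb1 stood at 10.9 and 13.6 against 13.0 and 18.0 CPM. Cacnb2 stood at 12.4 and 10.1 against 18.5 and 13.2 CPM, and Cacnb4 at 2.69 and 2.77 against 2.28 and 2.83 CPM. Of the beta genes, only Cacnb2 had groups that did not overlap, beside 59.0% of all tested genes. Of the 8 gamma genes, several of which encode regulators of AMPA receptors rather than channel subunits, 5 were tested and 0 were called. Cacng5 came nearest, at 20.1 and 28.8 CPM in NSC and 38.6 and 62.4 CPM in NSC Bmi1Over (log2 fold change 1.06, edgeR adjusted p = 0.0614), and it was called under 8 of 13 alternatives, among them DESeq2 with an adjusted p of 0.000636, but not without NSC Bmi1Over replicate 2 (edgeR adjusted p = 0.145). Cacng7 and Cacng4, the most abundant of them, had log2 fold changes of 0.09 and −0.10, and Cacng8 had 0.38. Cacng3, named after its values were seen, had a log2 fold change of −1.74 (edgeR adjusted p = 0.0775) from levels below 1 CPM. With a culture left out it ranged from −3.05 to −1.42, and it was called under 3 of 12 alternatives.

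**Figure D2:**
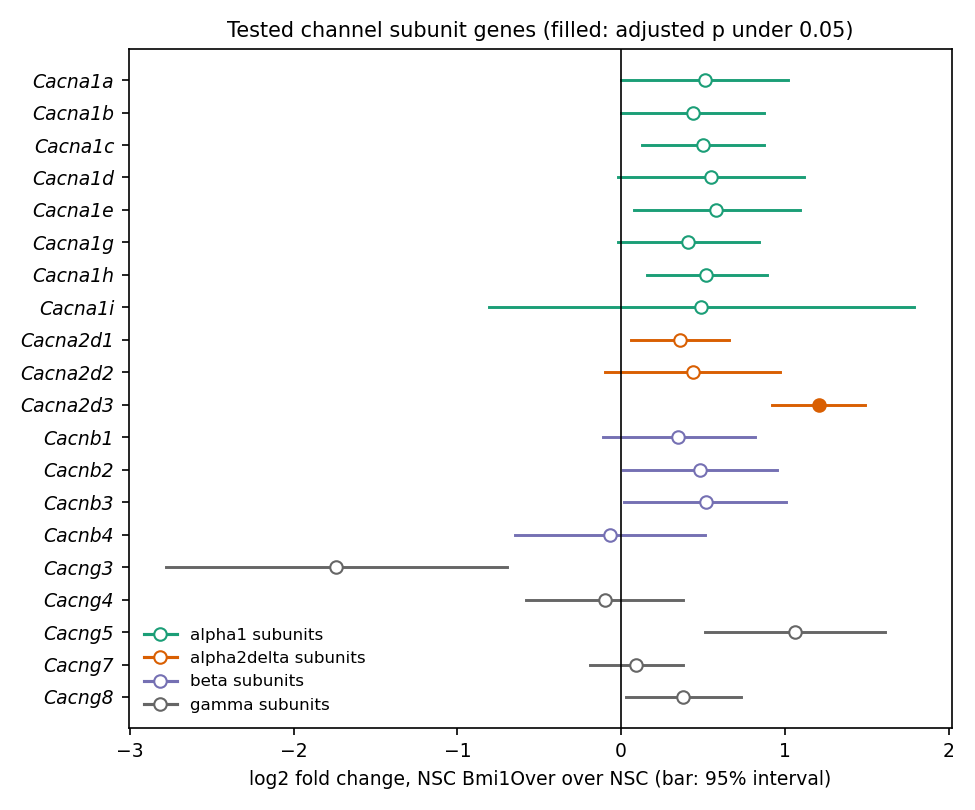
Log2 fold change of the libraries labelled NSC Bmi1Over over NSC for the tested alpha1, alpha2delta, beta and gamma genes, with bars for the 95% interval of edgeR's fit and filled points for an adjusted p under 0.05. All 8 alpha1 points lie right of 0 and are open, and Cacna2d3 at 1.21 is the only filled point.

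**Figure D3:**
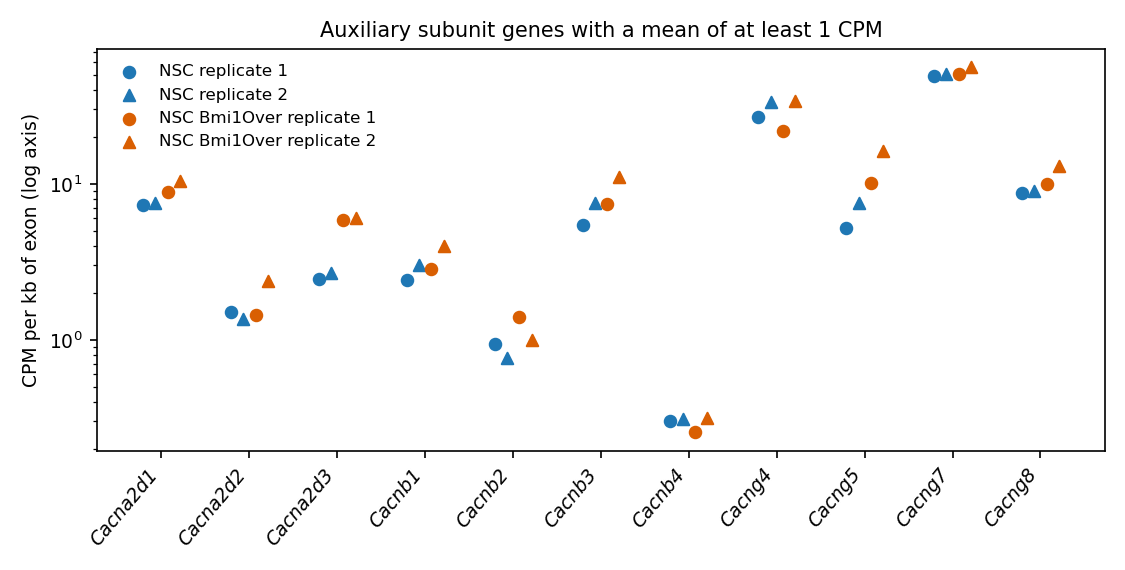
Level of the auxiliary subunit genes that averaged at least 1 CPM, in the 4 libraries, in CPM per kb of exon on a log axis, with blue for NSC and orange for the libraries labelled NSC Bmi1Over. Both orange points of Cacna2d3 lie above both blue points, at 5.86 and 6.04 against 2.47 and 2.69 CPM per kb.

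Genes that handle calcium inside the cell and carry it out were taken next. Of the 21 genes of internal stores, store-operated entry and extrusion, 20 were tested, 3 were higher and 0 lower, beside 2.15% of all tested genes called, and the median log2 fold change was 0.51. Atp2a3, a calcium pump of the endoplasmic reticulum, stood at 4.31 and 8.74 CPM in NSC and at 21.2 and 28.1 CPM in NSC Bmi1Over (log2 fold change 1.94, SE 0.30, edgeR adjusted p = 0.0276). Itpr1, an inositol trisphosphate receptor, stood at 36.9 and 46.0 against 72.7 and 68.0 CPM (log2 fold change 0.76, SE 0.14, edgeR adjusted p = 0.0407). Atp2b1, a plasma membrane calcium pump, stood at 215.2 and 274.9 against 427.2 and 459.1 CPM (log2 fold change 0.86, SE 0.17, edgeR adjusted p = 0.0451). In all 3, every library labelled NSC Bmi1Over was above both NSC libraries, and the groups did not overlap for 59.0% of all tested genes. Without NSC replicate 1 the adjusted p was 0.260 for Itpr1 and 0.388 for Atp2b1, and for Atp2b1 it was 0.0680 without NSC Bmi1Over replicate 2 and 0.0518 with DESeq2's size factors. The most abundant uncalled genes of the list were Atp2a2, the main reticulum pump, with a log2 fold change of 0.53 (edgeR adjusted p = 0.164), the calcium sensor Stim2 with 0.70 (edgeR adjusted p = 0.0861) and Itpr2 with 0.33 (edgeR adjusted p = 0.172).

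Of 18 binding partners of the channels, 15 were tested, 1 was higher and 0 lower, with a median log2 fold change of 0.07, and 2.15% of all tested genes were called, which also holds beside the next counts. The call was Rimbp2, which links calcium channels to the release machinery of synapses, at 16.1 and 9.41 CPM in NSC and at 46.3 and 39.9 CPM in NSC Bmi1Over (log2 fold change 1.75, SE 0.23, edgeR adjusted p = 0.0166). Calm2 and Calm3 did not pass, with log2 fold changes of −0.13 and −0.22. Of 18 genes that respond to calcium, 17 were tested and 0 were called, with a median of −0.01 and 8 of 17 above 0. Egr1, an immediate early gene, stood at 341.7 and 286.9 CPM in NSC and at 217.5 and 218.0 CPM in NSC Bmi1Over (log2 fold change −0.53, edgeR adjusted p = 0.0877), while Camk2b had 0.24 and Creb1 −0.16. For comparison, of the 9 sodium channel alpha genes, 7 were tested, 0 were called, and their median was 0.41. The log2 fold change was 0.13 for Scn8a, 0.41 for Scn2a and 0.12 for Scn1a, none of which passed.

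At the chromatin level, 4 alpha1 genes had H3K27me3 near a start in NSC: Cacna1d, Cacna1e, Cacna1g and Cacna1i. To be counted, a gene needed a peak no further than 5 kb from an annotated start, which held for 8.89% of all protein-coding genes in the NSC list, and 3 of the 4, all but Cacna1d, also had such a peak in the NSC Bmi1Over list, beside 4.44% of all. Within the gene body, 5 alpha1 genes had a peak in NSC (the same 4 and Cacna1c; 8.76% of all genes) and 2 in NSC Bmi1Over (Cacna1e and Cacna1g; 4.62% of all). No peak of either list was assigned to Cacna1a, Cacna1b, Cacna1f, Cacna1h or Cacna1s. Long genes with many starts have more room for a peak, and the shares over all genes are not matched for this. The 10 gene bodies of 2297076 bp were covered over 0.331% in NSC, where all protein-coding gene bodies were covered over 0.54%, and over 0.0454% in NSC Bmi1Over, where it was 0.224%. With 1 library per condition the lists were not tested against each other. The NSC list held 12982 peaks and the NSC Bmi1Over list 6810, and the lists do not give their depth. The methods state read totals that differ between replicates and conditions, with the deepest library among those of NSC, and say that the weakest samples were dropped, partly by read number, without naming the library kept, and the part of depth in these counts was not tested.

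Cacna1g had the strongest peak of the family, at chr11:94472784-94473922 in NSC, 1139 bp long and starting 276 bp inside the gene, with 7.03-fold enrichment and 9.31 as −log10 q. In NSC Bmi1Over, a peak of 443 bp with a fold enrichment of 4.70 and another of 200 bp with 5.55 overlapped it. A further peak of 487 bp with a fold enrichment of 4.05 followed in NSC only, and 5 peaks of 200 bp each lay deeper in the gene. Deeper in the gene, NSC Bmi1Over had 1 peak of 201 bp, with a fold enrichment of 5.56, which overlapped none of NSC. At Cacna1i, NSC had 3 peaks in a row around the start, of 840, 1495 and 1035 bp, with fold enrichments of 3.92, 6.12 and 6.01. The peak of 1495 bp, chr15:80285841-80287335, crossed the start and covered the sequence printed above. In NSC Bmi1Over only the outermost had a counterpart, of 541 bp with a fold enrichment of 4.63, which ended 1714 bp before the start, and no peak was listed at the start itself.

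Cacna1e and Cacna1d were marked at internal starts and not at the outer end of the gene. In NSC, the Cacna1e peak at chr1:154724441-154726521 was the widest of the family, with 2081 bp and a fold enrichment of 4.33, and lay 157980 bp or more inside the gene record, over an exon and the internal RefSeq start. In NSC Bmi1Over a peak of 200 bp with a fold enrichment of 4.03, the lowest in that list, lay within it. Cacna1d had peaks of 341 and 224 bp in NSC on either side of its internal start rich in CG, with fold enrichments of 4.30 and 3.88, and none in NSC Bmi1Over. A further NSC peak of Cacna1d, of 387 bp, and another of Cacna1e, of 301 bp, lay in introns with fold enrichments of 3.70 and 3.96. The Cacna1c peak, 507 bp with a fold enrichment of 4.15, lay in an intron 43038 bp from the nearest start. When a peak had to lie within 5 kb of the outer start of the gene, or to have a fold enrichment of at least 5, Cacna1g and Cacna1i remained in the NSC list.

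**Figure D4:**
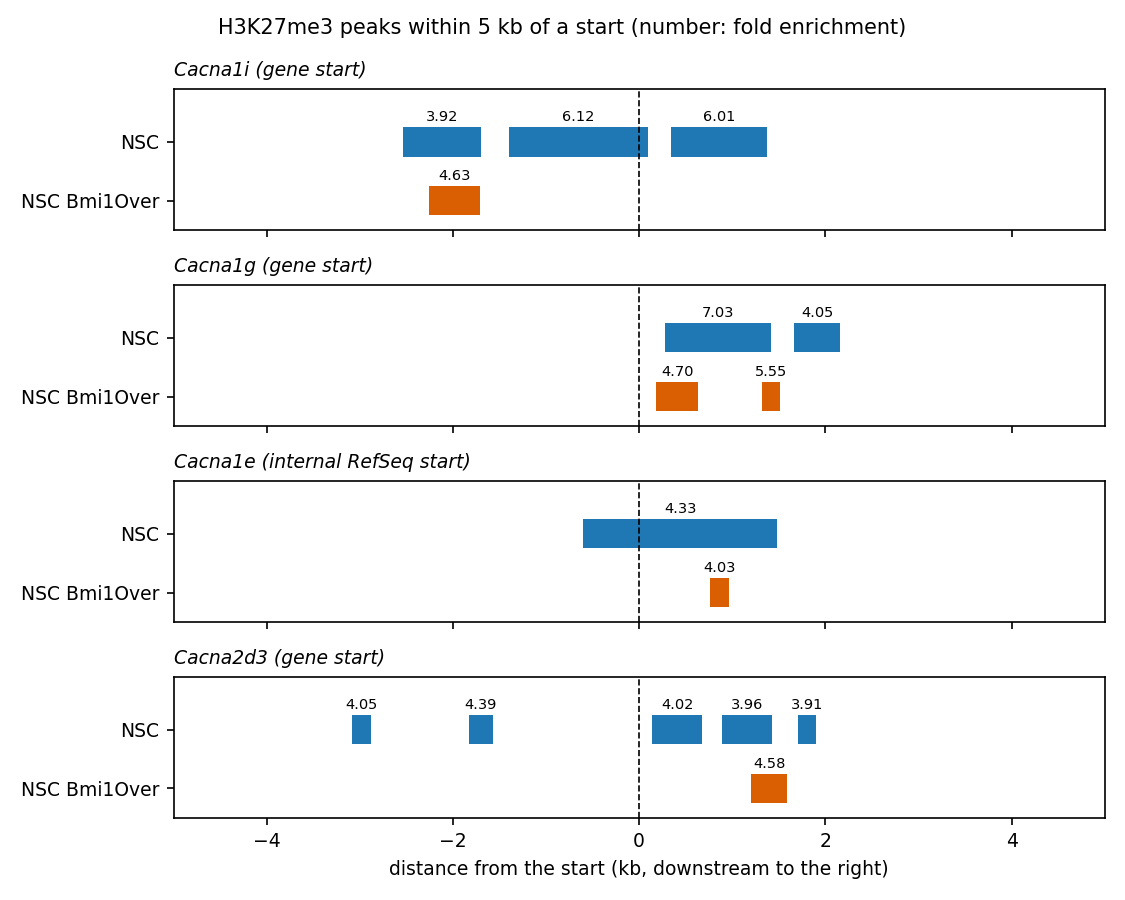
Peaks of H3K27me3 within 5 kb of a start of Cacna1i, Cacna1g, Cacna1e and Cacna2d3, with the distance from the start in kb on the x axis, blue bars for the NSC list and orange bars for the NSC Bmi1Over list, and the fold enrichment above each bar. At Cacna1i the NSC peak of 1495 bp crosses the start, with the other NSC peaks on either side. The NSC Bmi1Over peak of this gene lies before the start.

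The called auxiliary gene was marked as well. Cacna2d3 had 5 peaks within 5 kb of a start in NSC, with fold enrichments from 3.91 to 4.39, and 1 of 390 bp with a fold enrichment of 4.58 in NSC Bmi1Over. Cacna2d2 had a promoter peak in both lists, and Cacnb3 and Cacnb4 in NSC only. No gamma gene had one. Atp2a3 had a promoter peak in NSC and none in NSC Bmi1Over, and Itpr1, Atp2b1 and Rimbp2 had none in either list. Over all protein-coding genes, 8.89% had a promoter peak in NSC and 4.44% in NSC Bmi1Over. Fewer peaks at the genes named here are thus no result about them, and a relation to expression was not tested.

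Set beside expression, the 4 alpha1 genes with a promoter peak in NSC took places 5 to 8 in the order of CPM per kb. The 4 above them, Cacna1h, Cacna1c, Cacna1b and Cacna1a, and the 2 below, Cacna1s and Cacna1f, had none. Cacna1g, with the strongest mark, was still counted at 5.81 and 6.15 CPM in NSC, and Cacna1i, marked across its start, at 0.198 and 0.570 CPM. The NSC Bmi1Over list is shorter as a whole, with 6810 against 12982 peaks and a promoter peak at 4.44% against 8.89% of all protein-coding genes, so fewer or shorter peaks at these 4 genes are no result about them. Cacna1g had 5 promoter peaks in NSC and 2 in NSC Bmi1Over, the Cacna1e peak measured 2081 bp against 200 bp, and the levels of both were without overlap, as were those of 59.0% of all tested genes. Cacna1i had 3 promoter peaks against 1 and Cacna1d 2 against 0, and the levels of these overlapped between the groups. None of the 4 passed the test of expression, and the relation between mark and level was not tested. With 10 genes and 1 peak list per condition, this is a description of the members.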

How the data were processed

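Expression was measured by RNASeq in 2 NSC and 2 NSC Bmi1Over cultures, and H3K27me3 by ChIPSeq in 1 library per condition. Reads were trimmed (Trim Galore) and mapped to mm10 (STAR), and the authors deposited raw counts per gene. The STAR version and annotation are not given in the sources used here. For ChIPSeq the authors aligned with Bowtie2 2.3.4, discarded multi-mapped reads, kept a library for each condition and ran MACS2 in broad mode. Per peak, the deposited lists hold the fold enrichment (a ratio to background) and −log10 values of p and q (p-value, q-value), and a display score that was not used.

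Of 50686 identifiers, 50462 matched GENCODE vM21. Unstranded counts of the 15521 genes kept by filterByExpr were normalised by TMM (factors 0.932 to 1.08) and fitted with edgeR 4.0.16's quasi-likelihood test in R 4.3.3, as in the methods of the paper but without its biotype filtering, with Benjamini-Hochberg adjustment over all tested genes and a threshold of 0.05. The fit had no replicate term. DESeq2 1.42.0 was an alternative. CPM per kb used the union of exons. Peaks were assigned in Python 3.11.15 at an overlap of at least 1 bp. The steps were tested on simulated data. A peak within 5 kb of any annotated start was a promoter peak. Counted reads of 18112100 to 61353076 per library put the floor of 3 reads between 0.0525 and 0.171 CPM. Floors cover counting error only.

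The members and gene lists were chosen with earlier results of these data known. Named were all 10 Cacna1 genes, Bmi1, auxiliary subunits that were called or had a mean of at least 1 CPM, and, of the lists of partners, stores and extrusion, calcium response and sodium channels, called genes and up to 3 more with the highest mean CPM, of which 1 is not reported here. Marker genes and Cacng3 are outside this rule and were named after their values were seen. The paper describes the cultures as biological replicas. The alternatives are given with their effect in the closing section, and the median over the tested alpha1 genes was added to them after the data were seen.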

Additional observations from a re-analysis of the deposited data

How the results depend on the processing

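The number of called alpha1 genes, 0, was unchanged with DESeq2's size factors, library size alone, a mean of at least 1 CPM, the summed stranded columns, protein-coding genes only and libraries thinned to the smallest. It was 4 with all genes of at least 1 read, 1 with the DESeq2 Wald test, and 0 to 5 with each culture left out. With the replicate number as a block, 5 were called (Cacna1a, Cacna1b, Cacna1c, Cacna1d and Cacna1h). The numbers share no stated origin, and with 2 pairs the differences between replicates correlated at r = 0.169 over 15521 genes, so the block stays an alternative. Over all genes, 334 calls became 537 with library size alone, 2356 with all genes of at least 1 read, 1488 with DESeq2, 3459 with the block, and 176 to 2546 with a culture left out. The median log2 fold change of the tested alpha1 genes, added after the data were seen, was 0.26 to 0.68 with a culture left out, lowest without NSC Bmi1Over replicate 2. Library size alone moved the median of all genes to −0.17 and that of the alpha1 genes to 0.35.

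In the order by CPM per kb, 2 genes changed places with the longest transcript and 2 (Cacna1s and Cacna1i) with the summed stranded columns. Promoter-marked alpha1 genes in NSC fell from 4 to 2 at a fold enrichment of at least 5 or with the gene start only. In NSC Bmi1Over they fell from 3 to 1 at a −log10 q of at least 3 or a fold enrichment of at least 5, and to 0 at 1000 bp or more. Gene body counts fell from 5 to 2 at a fold enrichment of at least 5 and to 3 at 1000 bp or more in NSC, and from 2 to 1, 1 and 0 under the same q, fold and width limits in NSC Bmi1Over. The cause of these moves, other than fewer peaks kept, was not tested.

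Signs turned, without a call, for Cacna1i (−0.47 to 1.45 with a culture left out), Cacnb4 (−0.26 to 0.05, and 0.10 when thinned), Cacng4 (−0.46 to 0.18) and Cacng7 (−0.06 with library size alone). Depth limits Cacna1i, Cacna1s and Cacna1f most.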
